A study of Rattus rattus with 8 samples.

Results

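The genes described here are the integrin subunits and laminin chains of sorted neonatal rat heart cell cultures. They were chosen by gene symbol alone (Itga or Itgb, or Lama, Lamb or Lamc, followed by the subunit's number or letter), which gave 37 of the 30957 genes in the deposited table: 25 integrin subunits, 11 laminin chains and the integrin-like gene Itgbl1, whose symbol has the same form. Messenger RNA was sequenced from 4 tetraploid (4n) and 4 diploid (2n) samples, the 4 of a group being biological replicates from separate experiments. All 8 came from neonatal rat cardiomyocytes (NRCMs) of SD pups aged 1 to 3 days. After differential adherence the cells spent 24 h in medium that held AraC at 0.2 mM, which blocks DNA synthesis, and were then starved of serum and kept at 1% oxygen for 48 h, so both groups are hypoxic. They were stained with the DNA dye Hoechst at 2 µg/mL and sorted by DNA content, which cannot separate a tetraploid nucleus from a binucleated cell, a cell in G2 or M phase, or a pair of 2n cells sorted together. Each sample is a bulk of sorted cells, and fewer cells of a type and less RNA per cell cannot be told apart in it.

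Integrins are receptors made of an alpha and a beta chain that span the membrane, bind the extracellular matrix or other cells outside, and link to the actin cytoskeleton inside. Laminins are cross-shaped trimers of an alpha, a beta and a gamma chain and form the sheet of the basement membrane, which surrounds every heart muscle cell. In striated muscle the main laminin receptor is the integrin of Itga7 with Itgb1, and it binds laminins that contain the Lama2 chain. Stromal cells use the collagen receptors Itga1 and Itga11 and the fibronectin receptor Itga5 with the same Itgb1 chain, whereas leukocytes use Itgb2 with Itgal, Itgam or Itgax.

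The libraries held 14783521 to 21033772 counts. The 11 cardiomyocyte markers found summed to 4672 to 35897 CPM (counts scaled to a common library size with the trimmed mean of M-values) in 4n libraries and to 531 to 1082 CPM in 2n libraries. All 11 were called higher in 4n (edgeR, adjusted p under 0.05), against 2.67% of all genes tested. With the replicate number as a block in the model 10 were called higher, against 4.27% of all genes. The 10 fibroblast markers summed to 29606 to 51736 CPM in 4n and 44525 to 57886 CPM in 2n. Most of that sum came from the collagens Col1a1 and Col3a1, and the other 8 fibroblast markers summed to 3177 to 4332 CPM in 4n and 5248 to 6719 CPM in 2n. Among 4n libraries the cardiomyocyte sum was highest in replicate 3, at 35897 CPM, then in replicates 4, 2 and 1, at 14214, 9251 and 4672 CPM. Genes named as mitochondrially encoded took 3.59% of the counts in 4n replicate 1 and 23.2% to 24.4% in the other three 4n libraries, against 2.78% to 3.71% in 2n.

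Of the 37 genes, 31 had enough counts to be tested, and 3 of the 31 were higher in 4n, among them Itga7 and Itga3 (edgeR quasi-likelihood test, adjusted p under 0.05 over 12983 genes). That is 9.68% of those tested, against 2.67% of all genes tested that were higher. The number lower in 4n was 0 of 31, against 0.0077% of all genes, and DESeq2 and limma-voom also called 0 lower. At an unadjusted p under 0.05, 7 of the 31 were higher and 1 lower in edgeR. Of all 12983 genes, 1630 were higher at that p and 4.82% lower, or 17.4% in either direction. With the replicate number as a block in edgeR, 8 were higher and 8 lower at that unadjusted p, against 16.9% and 13% of all genes. The median log2 fold change of the 31 was -0.06, and that of all tested genes was -0.01. When the replicate number entered the edgeR model as a block, it again called 3 higher, against 4.27% of all genes, and 0 lower, against 0.608%, now with Itga3 and Itgb5 among them. Itga7 then had an edgeR-adjusted p of 0.0510 and was no longer called.

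**Figure D1:**
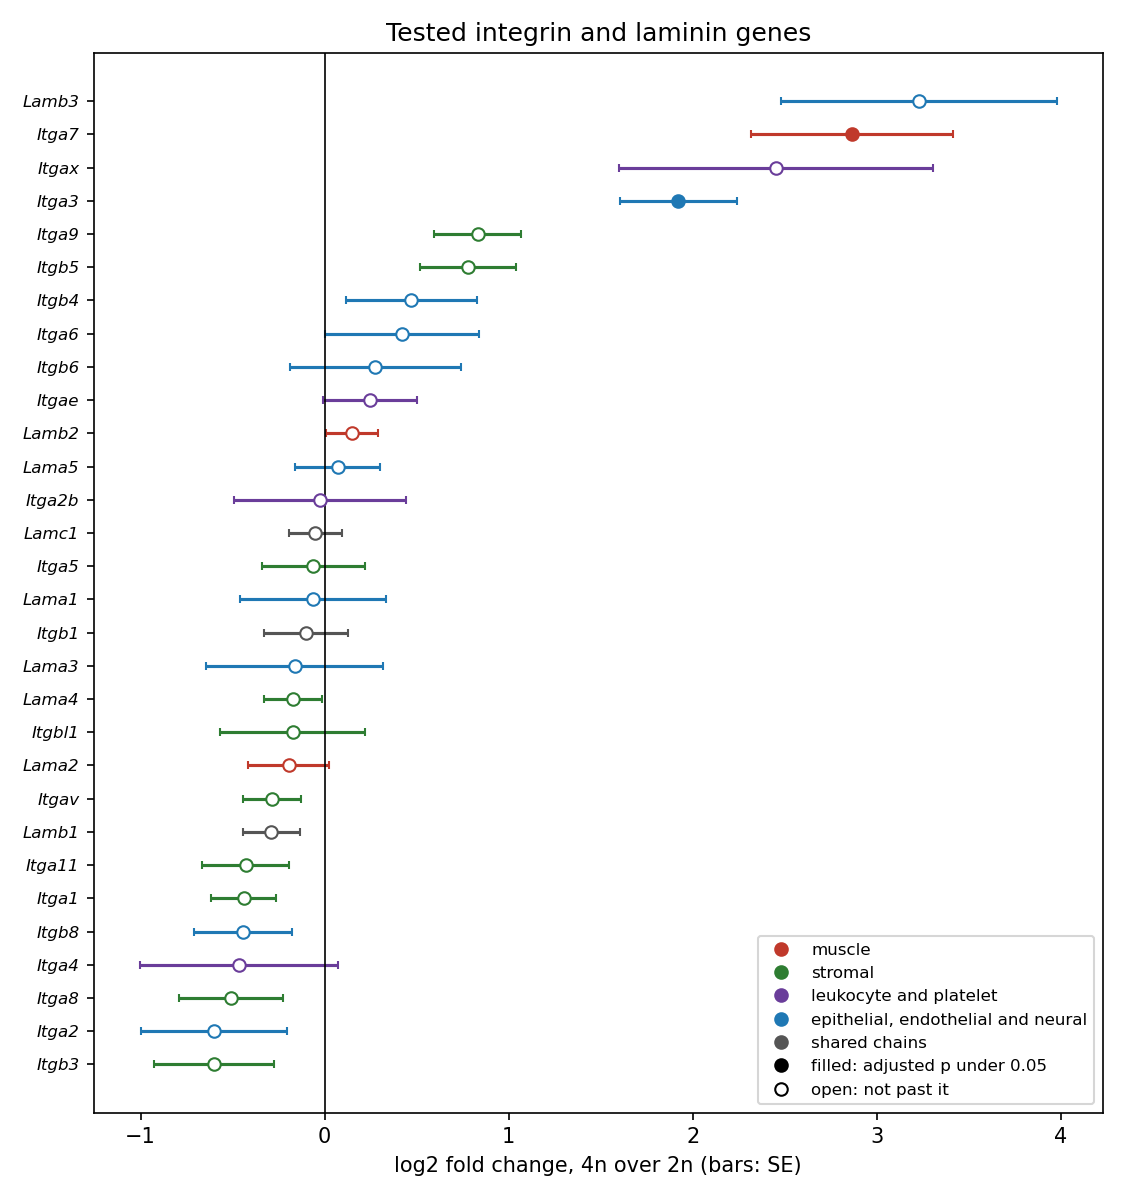
Log2 fold change of 4n over 2n (horizontal axis, bars are SE) for 30 tested integrin and laminin genes, coloured by class, with filled points for edgeR-adjusted p under 0.05. The filled points are Itga7 and Itga3, at 2.86 and 1.92, while 18 of the 30 lie below 0 and none of those is filled.

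The 3 calls depended on single libraries. Leaving out any single 2n library, or 4n replicate 4, left none of them past the threshold, with edgeR-adjusted p from 0.0629 to 0.127 for Itga7 and Itga3. In those 5 fits 0 genes of the whole table were called, with 1304 to 1478 genes higher at an unadjusted p under 0.05. Over all 8 fits without a library the log2 fold change of Itga7 ran from 2.22 to 3.23 and that of Itga3 from 1.58 to 2.13. Without 4n replicate 1, 6 of the 31 were called, against 6.64% of all genes, and Lamb3, Itgb5 and Itga9 then passed. DESeq2 called 6 of the 31 higher, against 6.62% of all genes, and limma-voom 0. At an unadjusted p under 0.05 each tool had 7 of the 31 higher, against 1631 of 12983 genes in DESeq2 and 1456 of 12983 in limma-voom.

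Itga7, the alpha chain of the muscle laminin receptor, lies on chromosome 7 from 3355116 to 3384675 (Rnor_6.0). It had 68.2, 145, 432 and 186 CPM in 4n replicates 1 to 4, against 19.3, 25.3, 21.6 and 47.8 CPM in 2n replicates 1 to 4. Every 4n library lay above every 2n library, and 4n replicate 3 was the highest of the 8. The log2 fold change was 2.86 ± 0.55 (SE), a fold of 7.28, with an edgeR-adjusted p of 0.0321. By replicate number the difference in log2(CPM + 0.5) was 1.79, 2.50, 4.29 and 1.95.

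**Figure D2:**
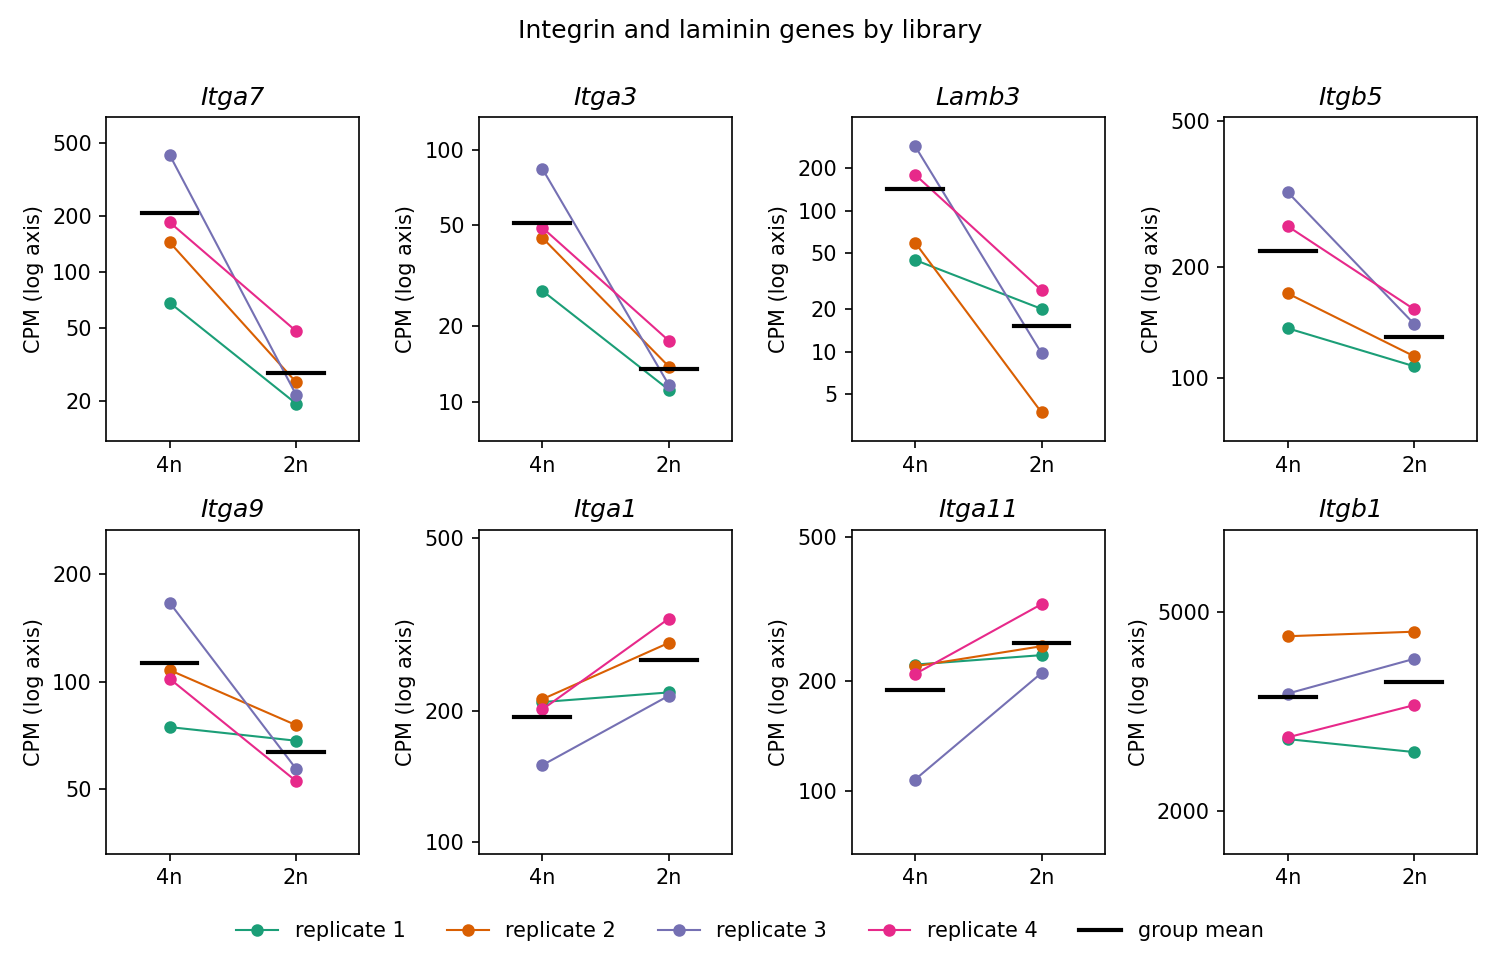
CPM on log axes for 8 genes in each 4n and 2n library, with lines joining libraries of the same replicate number and black bars at the group means. Itga7, Itga3 and Lamb3 have all 4n points above all 2n points, Itga1 has all 4n points below, and Itgb1 overlaps between 2782 and 4472 CPM in 4n and 2620 and 4567 CPM in 2n.

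The other 2 genes of the muscle class did not pass the test. Lama2, the alpha chain of muscle laminin, on chromosome 1 from 18491384 to 19143269, had 457, 446, 565 and 280 CPM in 4n and 541, 436, 614 and 410 CPM in 2n. The groups overlapped, and its log2 fold change was -0.19 ± 0.22 (SE, by edgeR, adjusted p = 0.688). Lamb2, a beta chain of the muscle basement membrane that is concentrated at neuromuscular junctions, had 406, 369, 485 and 350 CPM in 4n and 423, 335, 339 and 355 CPM in 2n. Its log2 fold change was 0.15 ± 0.14 (SE, by edgeR, adjusted p = 0.627), and it turned to -0.09 with total count scaling, which moved the median of all genes to -0.25. Since fibroblasts and other stromal cells also make Lama2 and Lamb2, these counts are not specific to muscle cells.

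Itga3, a laminin-binding alpha chain best known from epithelia, also rose. On chromosome 10 from 82855613 to 82887497, it had 27.6, 44.7, 83.9 and 49.0 CPM in 4n, against 11.2, 13.8, 11.7 and 17.5 CPM in 2n. All 4n values lay above all 2n values, with replicate 3 again the highest. The log2 fold change was 1.92 ± 0.32 (SE, by edgeR, adjusted p = 0.0252), and 1.83 with the replicate block (by edgeR, adjusted p = 0.0304).

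Lamb3, a beta chain of the laminin that anchors epithelia, lies on chromosome 13 from 112031594 to 112073186. It had 44.8, 59.6, 287 and 180 CPM in 4n, against 20.2, 3.73, 9.81 and 27.4 CPM in 2n. Here too the 4n values all lay above the 2n values, but the 2n values spread over a wide range and the gene did not pass, with a log2 fold change of 3.23 ± 0.75 (SE, by edgeR, adjusted p = 0.0591; 0.0659 when blocked). Without 4n replicate 1 it passed (by edgeR, adjusted p = 0.0204).

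Lama3, the alpha chain of the same laminin, stood far lower. On the scale of deposited FPKM, which is per length, Lama3 averaged 0.387 ± 0.256 in 4n and 0.490 ± 0.0626 in 2n, and Lamb3 averaged 30.2 ± 22.1 in 4n and 4.01 ± 2.76 in 2n (mean ± SD, n = 4 libraries each). In 4n replicate 3, where Lamb3 was highest, Lama3 was at its lowest, with 6 counts. Its log2 fold change was -0.16 ± 0.48 (SE, by edgeR, adjusted p = 0.893). The beta chain Itgb4, which pairs with Itga6 as the epithelial receptor for this laminin, had 2.26 to 4.44 CPM in 4n and 1.69 to 3.55 CPM in 2n and was not called (by edgeR, adjusted p = 0.533). The end of Itgb4 overlaps Galk1, which has 16665 counts against 387 for Itgb4, so some of its reads may belong to Galk1.

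The epithelial markers gave a mixed picture in the same libraries. Of 10 markers, a list added after the values were seen, Krt5 had no count in any library and Epcam had 1 and 2 counts in 4n replicates 1 and 2 and 0 in the others. The list summed to 15.8 to 30.5 CPM in 4n and 12.0 to 19.9 CPM in 2n. Of the 4 that could be tested, 0 passed without the block and 2 were higher with it, against 2.67% and 4.27% of all genes higher. One of the keratins, Krt18, had 3.12, 4.02, 15.96 and 11.3 CPM in 4n, against 0.854, 0.434, 0.742 and 2.79 CPM in 2n. Krt8, another keratin, had 2.97 to 8.18 CPM in 4n and 1.43 to 5.58 CPM in 2n and was higher in 4n at all 4 replicate numbers. Col17a1, a collagen of epithelial anchoring junctions, had 5.51 to 13.2 CPM in 4n and 8.48 to 12.2 CPM in 2n. Cdh1, also of this list, had 3, 4, 1 and 6 counts in 4n and 1, 23, 12 and 11 counts in 2n. Endothelial markers summed to 77.7 to 420 CPM in 4n and 32.9 to 63.5 CPM in 2n, with the highest sum in 4n replicate 4. Of these 7, 0 passed without the block and 5 were higher with it, against 4.27% of all genes with it. Tek of this list had 18.9, 17.3, 16.8 and 26.0 CPM in 4n, against 24.4, 18.7, 27.5 and 20.9 CPM in 2n. Of 6 epicardial and mesothelial markers, 0 passed without the block and 2 were higher with it, against 4.27% of all genes with it. The part of these cell types in Lamb3 and Itga3 was not tested.

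Of the 10 tested genes of the stromal class, Itgb5 and Itga9 had log2 fold changes above 0. Itgb5, which pairs with Itgav to bind vitronectin, had 137, 170, 320 and 259 CPM in 4n, against 108, 115, 140 and 154 CPM in 2n. It was higher in 4n at each of the 4 replicate numbers although the groups overlapped. Its log2 fold change of 0.78 ± 0.26 (SE) did not pass (by edgeR, adjusted p = 0.172), but with the replicate block it did (log2 fold change 0.71, by edgeR, adjusted p = 0.0396).

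Itga9, whose product binds tenascin and osteopontin among other ligands, had 74.5, 108, 166 and 102 CPM in 4n, against 68.2, 75.5, 56.9 and 52.6 CPM in 2n. It too was higher at each replicate number, by least in replicate 1, and it did not pass (log2 fold change 0.83 ± 0.23 SE, by edgeR, adjusted p = 0.109; 0.0910 when blocked). Without 4n replicate 1 it passed (by edgeR, adjusted p = 0.0243).

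The other 8 tested genes of the stromal class had log2 fold changes below 0, and none passed. The lowest was Itgb3, which pairs with Itgav and in platelets with Itga2b, at -0.60 ± 0.32 (SE, by edgeR, adjusted p = 0.380). Itgb3 had 42.4, 53.9, 22.6 and 22.9 CPM in 4n, against 50.4, 76.8, 51.3 and 36.7 CPM in 2n.

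Itga1, a collagen receptor chain, had 210, 213, 150 and 202 CPM in 4n, against 221, 287, 217 and 327 CPM in 2n. It was the only tested integrin or laminin whose 4n values all lay below its 2n values, which is 3.23% of the 31, against 3.69% of all tested genes, and its difference within replicate 1 was -0.07 on the log2 scale. Its log2 fold change was -0.44 ± 0.17 (SE, by edgeR, adjusted p = 0.243; 0.0673 when blocked). Reads of Pelo, which lies within Itga1 in the table's coordinates and had 7030 counts against 32877, cannot be told apart from it without a stated strand setting.

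Itga11, the other fibroblast collagen receptor chain, had 222, 220, 107 and 210 CPM in 4n, against 236, 250, 211 and 326 CPM in 2n (log2 fold change -0.43 ± 0.24 SE, by edgeR, adjusted p = 0.391). The low value of 4n replicate 3 stood apart from the other three 4n libraries. Itga8, Itgav, Lama4, Itgbl1 and Itga5 had log2 fold changes from -0.51 to -0.06. Of the 10 tested genes of the class, 7, or 70%, were lower in 4n at all 4 replicate numbers, against 19.7% of all genes tested. The class had a median log2 fold change of -0.23, or -0.08, -0.17, -0.26 and -0.40 for replicates 1 to 4. The fibroblast marker sum was lower in 4n at all 4 replicate numbers as well, at 49091, 51736, 29606 and 29967 CPM in 4n and 54218, 54725, 57886 and 44525 CPM in 2n. The smooth muscle and pericyte sum was not, at 6081, 10212, 5544 and 6467 CPM in 4n and 5845, 9703, 7313 and 7040 CPM in 2n. With the block 2 of the 10 fibroblast markers were lower, against 0.608% of all genes, and without it 0. Their part in the stromal values was not tested.

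**Figure D3:**
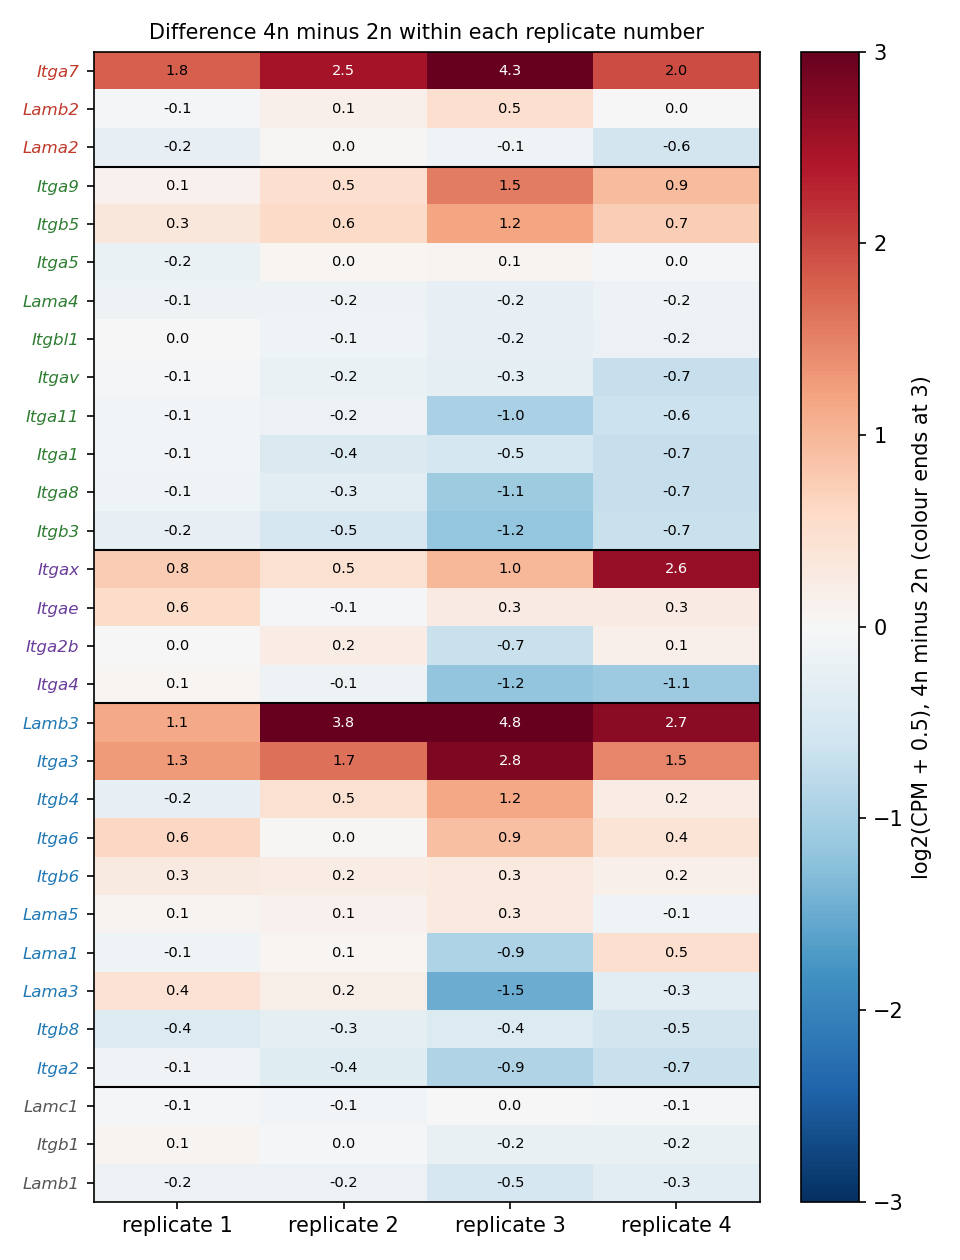
Difference in log2(CPM + 0.5), 4n minus 2n, within each replicate number for 30 tested genes, grouped from top to bottom as muscle, stromal, leukocyte and platelet, epithelial, endothelial and neural, and shared chains. Itga7, Lamb3 and Itga3 are positive in all 4 columns and largest in replicate 3, where Itga11, Itga8 and Itgb3 reach -0.97, -1.06 and -1.16.

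The leukocyte integrins were near the floor. The counts of Itgb2, the beta chain of most leukocyte integrins, were 51, 14, 0 and 16 in 4n libraries and 7, 8, 0 and 9 in 2n libraries. Itgam, a macrophage and neutrophil chain, had 6, 9, 0 and 12 counts in 4n and 1, 8, 0 and 0 in 2n. Replicate 3 had no count of either gene in both groups, where a count of 0 allows up to 3 counts. Itgb2, Itgam, Itgal, Itgb7, Itga10 and Lamc3 were too low to be tested.

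Itgax, a dendritic cell and macrophage chain, had 1.29, 0.669, 0.716 and 6.57 CPM in 4n, against 0.549, 0.347, 0.106 and 0.662 CPM in 2n. Its 4n values all lay above its 2n values, narrowly in replicate 2, and replicate 4 alone stood above 2 CPM. The log2 fold change of 2.45 ± 0.85 (SE) did not pass (by edgeR, adjusted p = 0.186; 0.0547 when blocked), and without 4n replicate 4 it was 1.10 (by edgeR, adjusted p = 0.462). In the table's coordinates Itgax lies wholly within Itgam, so reads could be split between them.

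The 11 leukocyte markers summed to 4.15 to 16.7 CPM in 4n and 3.71 to 7.81 CPM in 2n. Ptprc, the pan-leukocyte marker CD45, had 16, 15, 0 and 13 counts in 4n libraries and 0, 0, 0 and 1 in 2n, and the T cell marker Cd3e had none. The markers did not all go the same way. Cd14, the largest part of the sum in each 2n library, had 2.38 to 5.96 CPM in 4n and 3.13 to 5.98 CPM in 2n. It was higher in 4n in replicate 3 alone, whereas Lyz2 of the same list was higher in 4n at each replicate number. The part of leukocytes in the values of Itgax and Itgb2 was not tested. Itga4, which leukocytes share with stromal cells, had 38.0, 93.2, 31.6 and 15.8 CPM in 4n and 36.4, 103, 72.6 and 33.9 CPM in 2n (log2 fold change -0.47 ± 0.54 SE, by edgeR, adjusted p = 0.695). Itgae, a chain of intraepithelial lymphocytes, had 3.28, 4.02, 3.58 and 3.87 CPM in 4n and 2.07, 4.21, 2.92 and 3.17 CPM in 2n. It was not called (log2 fold change 0.25, by edgeR, adjusted p = 0.661), and it overlaps 5 other genes of the table. The platelet chain Itga2b had 1.24, 1.04, 0.286 and 0.731 CPM in 4n and 1.22, 0.824, 0.742 and 0.615 CPM in 2n, and it was not called (log2 fold change -0.02, by edgeR, adjusted p = 0.987).

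Among the remaining epithelial, endothelial and neural chains, Itga6, a laminin receptor chain, had 44.7 to 120 CPM in 4n and 28.8 to 118 CPM in 2n and was higher in 4n at each of the 4 replicate numbers (log2 fold change 0.42 ± 0.42 SE, by edgeR, adjusted p = 0.648; 0.0781 when blocked). Lama5, the alpha chain of endothelial and epithelial laminins, averaged 496 ± 106 CPM in 4n and 472 ± 137 CPM in 2n (mean ± SD, n = 4 libraries each; log2 fold change 0.07, by edgeR, adjusted p = 0.903). Itgb8, which pairs with Itgav and releases active TGF-beta, had 6.93, 7.06, 4.08 and 7.67 CPM in 4n and 9.39, 8.55, 5.62 and 11.5 CPM in 2n. It was lower in 4n at each replicate number and did not pass (log2 fold change -0.44 ± 0.27 SE, by edgeR, adjusted p = 0.430). Itga2, Itgb6 and Lama1 were not called either, with log2 fold changes of -0.60, 0.27 and -0.06 (by edgeR, adjusted p = 0.472, 0.801 and 0.954).

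The chains that most of the others pair with were not called. Per length, Itgb1 had the highest mean FPKM of the 37 genes, at 841 ± 159 in 4n and 1074 ± 251 in 2n, followed by Lamc1 at 225 ± 44.01 in 4n and 274 ± 30.3 in 2n and by Lamb1 at 157 ± 48.7 in 4n and 222 ± 25.7 in 2n (mean ± SD, n = 4 libraries each). Itgb1, the common beta chain, had 2782, 4472, 3432 and 2804 CPM in 4n and 2620, 4567, 4029 and 3254 CPM in 2n, a log2 fold change of -0.10 ± 0.23 (SE, by edgeR, adjusted p = 0.854). Values of the same replicate number lay close together, and replicate 2 was the highest in both groups. The muscle and the common splice forms of Itgb1 share this row of the table, so their balance was not measured.

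Lamc1, the gamma chain of most laminins, had 1966, 1834, 2064 and 1569 CPM in 4n and 2037, 1940, 2083 and 1634 CPM in 2n (log2 fold change -0.05 ± 0.15 SE, by edgeR, adjusted p = 0.892). Lamb1, the common beta chain, had 1144, 894, 767 and 959 CPM in 4n and 1298, 1018, 1090 and 1197 CPM in 2n (log2 fold change -0.29 ± 0.16 SE, by edgeR, adjusted p = 0.374). Both were lower in 4n at all 4 replicate numbers, as were 11 of the 31 genes, or 35.5%, against 19.7% of all genes tested. In 9 of the 31, or 29.0%, the 4n library was the higher one at all 4 replicate numbers, against 20.2% of all genes tested.

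Ratios of subunits within a library, which do not depend on how libraries are scaled, were compared for 5 pairs of chains. A further planned ratio, Itgb2 to Itgb1, was not computed and is not counted in the adjustment. Adjusted p under 0.05 therefore hold for these 5 ratios alone and could exceed 0.05 with it counted. The log2 ratio of Itga7 to Itgb1 in FPKM was -6.06, -5.65, -3.70 and -4.62 in 4n and -7.79, -8.21, -8.25 and -6.80 in 2n. The groups did not overlap, and the difference of 2.75 had p = 0.0286 in an exact two-sided permutation test, the smallest that 4 against 4 libraries allow, and 0.0476 adjusted over the 5 ratios. The ratio of Itga7 to Itga1, muscle against stromal, differed by 3.09, being -2.14, -1.07, 1.00 and -0.63 in 4n and -4.03, -4.03, -3.85 and -3.29 in 2n, with the same exact permutation p of 0.0286 and adjusted p of 0.0476. In 4n replicate 3 alone, Itga7 exceeded Itga1 per length.

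The ratio of Lamb2 to Lamb1 differed by 0.44, being -1.76, -1.54, -0.92 and -1.71 in 4n and -1.88, -1.86, -1.94 and -2.01 in 2n (exact permutation test, p = 0.0286, adjusted p = 0.0476). Without 4n replicate 3 this difference was 0.26. The ratios of Lama2 to Lamc1 and of Itga11 to Itgb1 differed by -0.17 and -0.37, and their groups overlapped (exact permutation test, p = 0.371 and 0.400, adjusted p = 0.400 for both). Sign flips within the 4 replicate numbers can give no p under 0.05, and with 7 libraries these 3 ratios had the smallest exact permutation p that the design allows (0.0952 adjusted), so neither test could call any ratio.

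By deposited FPKM, Itgb1 made up 94.3% ± 1.37 of the summed integrin beta chains in 4n and 95.6% ± 0.682 in 2n (mean ± SD, n = 4 libraries each), followed by Itgb5, at 4.19% ± 1.72 in 4n and 2.32% ± 0.581 in 2n. Among the alpha chains, Itga7 took 2.90%, 5.85%, 19.1% and 8.97% of the sum in 4n replicates 1 to 4, against 0.791%, 0.989%, 1.07% and 1.94% in 2n. In 4n replicate 3 it was the most abundant alpha chain per length. The other three 4n libraries and 2n replicate 1 were led by Itga5, and 2n replicates 2, 3 and 4 were led by Itga8, Itgav and Itga1.

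Among the laminin chains, the share of Lamb3 among the beta chains differed without overlap. Lamb3 took 3.96%, 6.33%, 25.04% and 16.4% of the beta chain sum in 4n, against 1.64%, 0.391%, 0.964% and 2.44% in 2n. Lamb1 took 49.1% to 74.1% of it in 4n and 77.3% to 78.6% in 2n. Lama4, Lama2 and Lama5 shared the alpha chains at 44.5% ± 4.36, 28.4% ± 7.89 and 26.8% ± 3.80 in 4n and 46.2% ± 2.26, 30.1% ± 6.09 and 23.4% ± 4.76 in 2n (mean ± SD, n = 4 libraries each). Lama3 took less than 1% in each library.

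**Figure D4:**
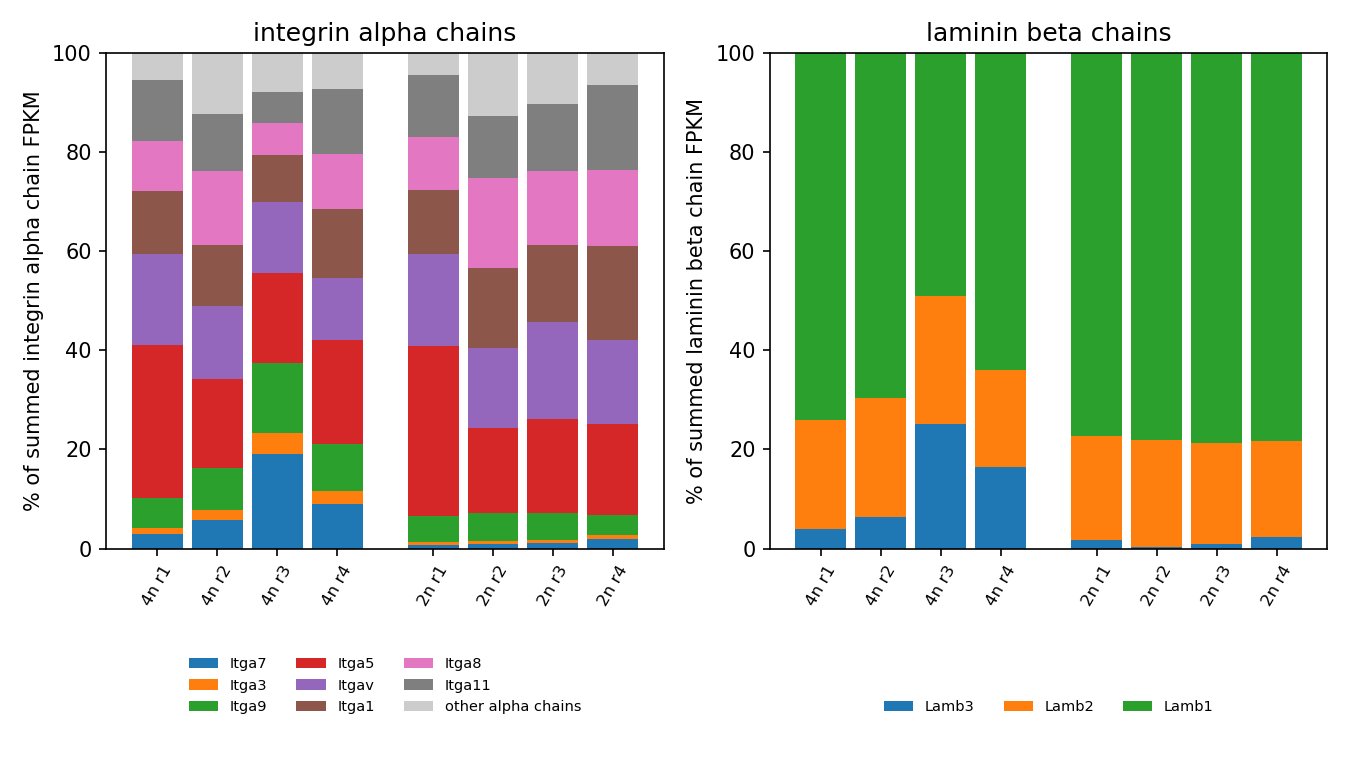
Share of each chain in the summed deposited FPKM of integrin alpha and laminin beta chains, in percent, for each 4n library (left 4 bars) and 2n library (right 4 bars), with r1 to r4 the replicate numbers. The bottom segments, Itga7 and Lamb3, reach 19.1% and 25.04% in 4n replicate 3 and stay at or below 1.94% and 2.44% in 2n.

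Within the 4n group the libraries were ordered alike in several of these genes. In 7 of the 31, among them Itga7, Itga3, Lamb3, Itgb4, Itgb5 and Itgb6 (the counts of Itgb4 and Itgb6 did not exceed 75 and 53 in any library), replicate 3 was highest, then 4, then 2, then 1, the order of the summed cardiomyocyte markers. These are 22.6% of the 31, against 12.1% of all genes tested with that order. The reverse order was held by 4, namely Itga5, Itga11, Itga2b and Lama3, or 12.9%, against 6.19% of all genes. Groups without overlap were found for 5 genes with all 4n values above 2n, or 16.1%, against 7.68% of all genes, among them Itga3, Itga7, Itgax and Lamb3. The part of the cardiomyocyte content in these differences was not tested.

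Of 67 partner genes in the table, which bind integrin tails, build basement membranes, serve as ligands or sit beside integrins in the membrane, 61 were tested and 4 rose, or 6.56%, against 2.67% of all genes. The number lower in edgeR was 0 of 61, against 2 in DESeq2 and 0 in limma-voom, and 12 of the 61 had an unadjusted p under 0.05 in either direction, or 19.7%, against 17.4% of all genes. With the block 5 rose, or 8.20%, against 4.27% of all genes, and 1 fell, Fbln1, a matrix fibulin (by edgeR, adjusted p = 0.0421). Fbln1 had 83.2, 111, 67.6 and 133 CPM in 4n, against 135, 142, 126 and 171 CPM in 2n. Among 28 tested tail adaptors, 3 rose, namely Itgb1bp2, Actn2 and Parvb, while integrin-linked kinase, Ilk, and the common adaptors Tln1, Fermt2 and Vcl had log2 fold changes between -0.21 and 0.07 and did not pass (by edgeR, adjusted p from 0.496 to 0.800).

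Itgb1bp2, or melusin, a muscle protein that binds the Itgb1 tail and is known for a role in the heart's response to pressure load, had 9.45, 23.4, 89.7 and 29.7 CPM in 4n, against 0.793, 1.39, 2.70 and 3.64 CPM in 2n. The groups did not overlap, and the 4n order was that of Itga7. Its log2 fold change was 4.14 ± 0.74 (SE, by edgeR, adjusted p = 0.0268; 0.0131 when blocked). Actn2, the sarcomeric alpha-actinin, had 168, 304, 1099 and 316 CPM in 4n, against 33.7, 10.7, 19.8 and 32.9 CPM in 2n, and is itself one of the cardiomyocyte markers. It rose by 4.28 ± 0.66 on the log2 scale (SE, by edgeR, adjusted p = 0.0252; 0.0479 when blocked), while its non-muscle relative Actn1 had a log2 fold change of -0.29 (by edgeR, adjusted p = 0.481).

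Parvb, or beta-parvin, which joins integrin-linked kinase to actin, had 43.998, 58.0, 150 and 85.2 CPM in 4n, against 25.5, 19.8, 22.6 and 34.8 CPM in 2n. It rose by 1.71 ± 0.37 on the log2 scale (SE, by edgeR, adjusted p = 0.0447), but not with the block (by edgeR, adjusted p = 0.0576), and the related Parva had a log2 fold change of -0.16 (by edgeR, adjusted p = 0.702). Lims2, which binds integrin-linked kinase, passed with the block alone (log2 fold change 1.14 ± 0.37 SE, by edgeR, adjusted p = 0.157; 0.0356 when blocked). It had 59.5, 64.2, 191 and 93.3 CPM in 4n, against 37.2, 36.97, 58.6 and 52.6 CPM in 2n.

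Among 15 tested ligands, 1 rose, against 2.67% of all genes, namely Spp1, or osteopontin, a secreted ligand of Itgav, Itga4 and Itga9 integrins. It had 33.0, 45.6, 24.9 and 63.1 CPM in 4n, against 7.93, 6.55, 3.08 and 14.5 CPM in 2n. Among 4n libraries it was lowest in replicate 3, where Itgb1bp2, Actn2 and Parvb were highest. Its log2 fold change was 2.37 ± 0.45 (SE, by edgeR, adjusted p = 0.0321; 0.00722 when blocked). Of the 15 ligands, 12 had a log2 fold change below 0, against 51.8% of all genes tested, with a median of -0.28 over the list, and Fn1, or fibronectin, had -0.49 (by edgeR, adjusted p = 0.306).

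None of 10 basement membrane partners passed in edgeR, and 2 had an unadjusted p under 0.05, against 17.4% of all genes. The nearest were Col18a1, a collagen of basement membranes (log2 fold change 1.01 ± 0.25 SE, by edgeR, adjusted p = 0.0695), Nid1, or nidogen, which links laminin to collagen (-0.47 ± 0.20 SE, by edgeR, adjusted p = 0.271), and Col4a1 (-0.35, by edgeR, adjusted p = 0.410). Of 8 tetraspanins and lateral partners none passed without the block and 1, or 12.5%, had an unadjusted p under 0.05, Cd81 and Cd9 having log2 fold changes of 0.21 and 0.33 (by edgeR, adjusted p = 0.481 and 0.655), and Bsg, or basigin, passed with it (log2 fold change 0.63, by edgeR, adjusted p = 0.236; 0.0491 when blocked). Bsg had 832, 589, 1145 and 1156 CPM in 4n, against 708, 421, 585 and 685 CPM in 2n. All 4 partner calls were lost without any single 2n library or 4n replicate 4, and that of Spp1 also without 4n replicate 2 (by edgeR, adjusted p from 0.0558 to 0.155), with log2 fold changes from 1.28 to 4.56 over all such fits.

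**Figure D5:**
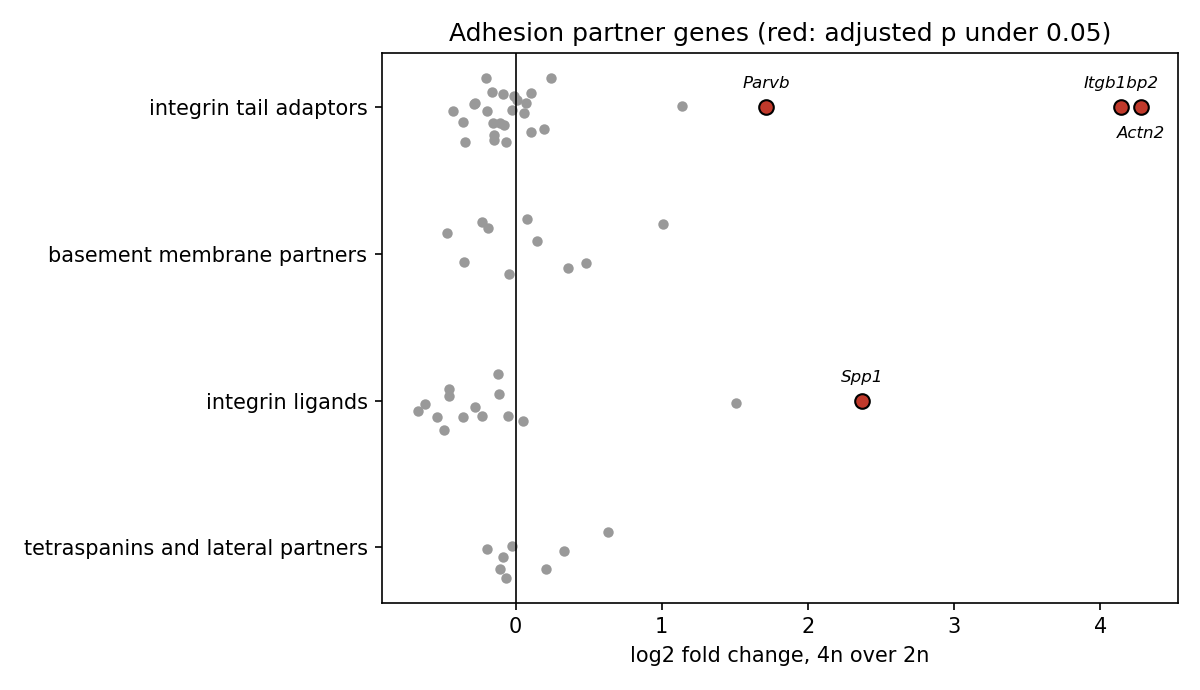
Log2 fold change of 4n over 2n for the 61 tested partner genes, 1 point each, in 4 lists, with red points for edgeR-adjusted p under 0.05. Actn2, Itgb1bp2, Spp1 and Parvb are red, at 4.28, 4.14, 2.37 and 1.71, and most other points lie within 0.7 of 0.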

How the data were processed

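Messenger RNA of 4 sorted 4n and 4 sorted 2n samples was sequenced. The deposited table holds whole-number read counts and FPKM per gene for every library, per the file headers. The submitters' processing notes list HISAT2 2.0.4, an aligner, and the build Rnor_6.0. How reads were counted, and whether by strand, is not given in the sources used here. Deposited FPKM values equal the count divided by a constant per gene and the library total, within 0.1% for 17003 of 17003 genes, so they carry no further normalization. The labels name the organism as Rattus rattus.

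The count test was that of edgeR 4.0.16, run in R 4.3.3 (filterByExpr, TMM, robust glmQLFit and glmQLFTest, two-sided) over 12983 genes, with Benjamini-Hochberg adjustment and a threshold of 0.05. SE is the log2 fold change divided by the square root of F. CPM use TMM library sizes, and 1 CPM stands for 13.4 to 23.0 counts. Differences within a replicate number are on log2(CPM + 0.5). Ratios of FPKM were compared by exact permutation of the libraries, without regard to the replicate numbers. Libraries with the same replicate number deviated together from their group means (r = 0.429, 0.585, 0.268 and 0.648), and the labels' descriptions of a 4n and a 2n sample with the same number begin alike, so the numbers were taken as pairs and the fit with the replicate number as a block is given where it changes a call. No pair of libraries of the same group agreed within sampling noise, and 4n libraries were not compared with 2n libraries in this way. Alternatives used DESeq2 1.42.0 and limma 3.58.1, other scalings and filters, and each library left out. The edgeR fit without the block was run on simulated counts with the same dispersion for all genes and no pairs. That run checks the code only, not the calls made in these libraries.

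The members were taken by gene symbol alone, whatever their values. The gene families, the classes and the partner and marker lists were chosen with earlier results of these data known. The epithelial list was added after the values were seen. Per-library values are given for genes past the threshold with or without the block, for up to 4 of each class with the smallest p, and for Itga7, Itgb1, Lama2, Lamb2, Lamc1, Itga1, Itga11, Itgb2 and Itgam. Other partners named are those with the smallest p or relatives of a called gene. The ratio of Itgb2 to Itgb1 was planned but not computed because Itgb2 had no count in replicate 3. It is left out of the adjustment over the ratios. Itgad, Lamb4 and Hspg2 were not analysed here. Some genes are not reported here by name and are left out of the figures, but stay in the counts. Of the other marker lists, smooth muscle and pericyte, epicardial and mesothelial, Schwann and neural, and platelet and erythroid genes had 0 called without the block. With it 2 of 6 epicardial and mesothelial genes were higher, against 4.27% of all genes.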

Additional observations from a re-analysis of the deposited data

Results flagged for a closer look

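In 4 of 62 groups of 4 libraries examined (31 genes in 2 groups), 1 library lay far from the other three, and chance flags about 1 in 20 groups. Itga11 had 107 CPM in 4n replicate 3, below 210 to 222 CPM in the other 4n libraries. Itga5 had 533 CPM in 4n replicate 1 and 615 CPM in 2n replicate 1, above 300 to 330 CPM in the other 4n libraries and 284 to 332 CPM in the other 2n libraries, so that both libraries of replicate 1 were high. Itgax had 6.57 CPM in 4n replicate 4, above 0.669 to 1.29 CPM in the other 4n libraries. The same library had the highest endothelial and the highest Schwann and neural marker sums, at 420 and 25.4 CPM. Its leukocyte marker sum, 12.3 CPM, lay below the 16.7 CPM of 4n replicate 1. The cause was not tested.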

How the results depend on the processing

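Among the 31 tested genes, 3 were higher in 4n with size factors or total counts, with a stricter filter, without mitochondrial genes and with limma on FPKM, against 6 with DESeq2 and 0 with limma-voom, and with no filter Itga7 was not called. Leaving out 1 library gave 0 to 6 higher. With the replicate block, leaving out replicate 1 gave 7 higher and 3 lower (Itga1, Itga8 and Itgb3), against 9.65% and 3.07% of all genes, and leaving out replicate 2 or 4 gave 0 and 0. Partner genes higher numbered 0 with limma-voom, 0 to 5 without 1 library, and 7, 0 and 0 with the block and without replicates 1, 2 and 4. Partner genes lower numbered 1 with the block, 2 with DESeq2, 0 to 1 without 1 library, and 4 and 1 with the block and without replicates 1 and 3. Total counts and FPKM plus 0.1 or plus 1 moved the median log2 fold change of all genes to -0.25, -0.26 and -0.20. They moved the stromal median to -0.48, -0.49 and -0.48, and turned the log2 fold change of Lamb2 to -0.089, -0.099 and -0.097. The leukocyte and platelet median was -0.20 with the block and without replicate 4, a fit in which Itgax was not tested, so that this median is over fewer genes. Changes of sign were confined to genes near 0: Itga2b ranged from -0.30 to 0.25 without 1 library and was 0.19 with the block and without replicate 3, Itgb1 ranged from -0.27 to 0.029 and Lamc1 from -0.12 to 0.023. The ratios of Itga7 to Itgb1, Itga7 to Itga1 and Lamb2 to Lamb1 kept differences of 2.75, 3.09 and 0.44 in sign flips within pairs (adjusted exact p = 0.156 each), and without 1 library they ran from 2.32 to 3.10, 2.52 to 3.56 and 0.26 to 0.53. The ratio of Itga11 to Itgb1 had the same adjusted exact p of 0.156 in sign flips, and without 1 library its difference ran from -0.55 to -0.10. Unless stated, the cause was not tested. At an unadjusted p under 0.05, total counts gave 7 higher and 6 lower, against 7.4% and 17.8% of all genes. Counts under 50 in at least 1 library limit Itga2b, Itgae, Itgax, Itgb4, Itgb6, Lama1 and Lama3, and the untested Itga10, Itgal, Itgam, Itgb2, Itgb7 and Lamc3.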
